A study of Homo sapiens with 6 samples.

Results

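ICAM1 and 8 relatives, ICAM2, ICAM3, ICAM5, VCAM1, ALCAM, MCAM, L1CAM and NCAM1, are cell-surface adhesion molecules built from immunoglobulin domains. These 9 genes, of 19775 with a name on the array, were measured by 22 probe sets of the 54613 that are not controls, taken as the probe sets whose only platform gene symbol is one of the 9 names. The group was chosen by the decrease of ICAM1 in this same comparison, so the values of ICAM1 below are a description and carry no test. The decrease of ICAM1 played no part in which probe sets represent the other 8 genes, which have 19 probe sets. A further 4 probe sets are annotated to both MCAM and a microRNA gene and were not read as MCAM.

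The cells were MDA-MB-231, an invasive human breast cancer line, from which 3 knockdown clones and 3 control clones were expanded, with 1 array each. Knockdown clones carried a retroviral pSM2 vector with a short hairpin RNA against WASF3, an activator of branched actin growth, and control clones carried the empty vector or a hairpin against GFP. All 6 clones were puromycin resistant and grown in the same serum-containing medium. Each array is 1 drug-resistant clone, and which of the 2 WASF3 hairpins or which control vector it carries is not stated in the sources used.

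Immunoglobulin-family adhesion molecules hold cells to each other and to passing leukocytes. ICAM1 and VCAM1 are the inducible ones: inflammatory cytokines switch them on through NF-kB, and leukocyte integrins bind them. ICAM2, ICAM3 and ICAM5 share integrin partners with ICAM1 and are best known from endothelial cells, leukocytes and neurons. ALCAM, MCAM, L1CAM and NCAM1 bind partners on neighbouring cells and are studied in melanoma, neural and carcinoma cells.

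Values are log2 RMA signals, in which the authors corrected background, matched the distributions of the arrays and summarised the probes of each probe set. A difference is knockdown minus control with the standard error (SE) of the limma fit, and adjusted p-values are Benjamini-Hochberg values over all 54613 probe sets. An adjusted p under 0.05 made a call. The array medians lay between 5.13 and 5.17, and a probe set below them in every clone is not shown to be above background. WASF3 itself read 5.40, 5.80 and 4.52 in knockdown clones 1, 2 and 3, against 6.77, 6.42 and 6.59 in control clones 1, 2 and 3. Relative to the control mean those knockdown clones stood at −1.19, −0.80 and −2.07, and the groups did not overlap (limma adjusted p = 0.102). The adjusted p was 0.0175 without knockdown clone 3, 0.0916 without clone 1 and 0.0858 without clone 2. With single clones left out it reached 0.420. Markers of an invasive basal breast line (VIM, CD44, EGFR, CAV1, AXL and MSN) read between 10.28 and 14.31 in all clones. Mean levels of 8 endothelial markers were 4.29 to 4.42 in knockdown and 4.22 to 4.28 in control clones, and those of 8 leukocyte markers 4.43 to 4.72 in knockdown and 4.69 to 4.74 in control clones. The leukocyte marker PTPRC read between 3.05 and 3.41, while 3 of the 8 leukocyte markers had a mean over 5 and the highest value was 6.84. Mean levels of 9 luminal breast markers were 6.76 to 7.51 in knockdown and 7.09 to 7.22 in control clones. No endothelial, leukocyte or luminal marker was called in limma. At an unadjusted p under 0.05 there were 3 of 8 endothelial markers higher, 1 of 8 leukocyte markers lower and 3 of 9 luminal markers lower. Over all genes 9.11% were higher and 7.67% lower at that threshold. Of 7 neural markers 0 were under it, and of 5 melanocytic markers 1 was higher and 1 lower. Their part in the results below was not tested.

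ICAM1, the receptor for the leukocyte integrins LFA-1 and Mac-1, read lower in all knockdown clones than in all control clones on each of its 3 probe sets. The brightest, 202637_s_at, read 8.36, 7.31 and 8.10 in knockdown clones 1, 2 and 3, against 9.66, 9.64 and 9.61 in control clones 1, 2 and 3. Probe set 202638_s_at read 8.12, 6.93 and 7.63 in knockdown clones 1, 2 and 3, against 9.28, 9.34 and 9.42 in control clones 1, 2 and 3. Probe set 215485_s_at, the dimmest, read 6.14, 5.27 and 5.80 in knockdown clones 1, 2 and 3, against 6.83, 6.89 and 6.73 in control clones 1, 2 and 3. On all 3 the order among knockdown clones was the same, with clone 2 lowest and clone 1 highest, while control clones lay close together (SD 0.02, 0.07 and 0.08). An array averages the cells of a clone, so fewer cells with ICAM1 and less ICAM1 RNA per cell cannot be told apart.

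The differences were −1.71 (SE 0.24), −1.79 (SE 0.26) and −1.08 (SE 0.20) on these probe sets, which is 30.5%, 29.0% and 47.3% of the control signal. Group means on the brightest were 7.92 ± 0.55 in knockdown and 9.64 ± 0.02 in control clones (SD, n = 3 each). Over all probe sets, 11.1% had knockdown values all below the control values and 0.308% were called lower. Nothing is read from ICAM1 against these shares, since its decrease chose it. With any single clone left out, the difference on 202637_s_at was between −1.93 and −1.41. As the groups did not overlap, leaving out a clone could not change its sign. The clone with the least ICAM1, knockdown clone 2, had the most WASF3 among knockdown clones (5.80). Knockdown clone 3 had the least WASF3 (4.52).

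An index of RNA quality, the 3′ minus 5′ signal of control probe sets for GAPDH and ACTB, was higher in knockdown clones than in control clones. It was 1.80 ± 0.27 in knockdown and 1.29 ± 0.17 in control clones (SD, n = 3 each, exact two-sided permutation p = 0.1, the smallest that 3 against 3 allows). Among knockdown clones it was 2.11, 1.62 and 1.66 in clones 1, 2 and 3, against 1.13, 1.47 and 1.26 in control clones 1, 2 and 3. With this index in the fit the difference of ICAM1 was −2.25 (SE 0.35), −2.49 (SE 0.34) and −1.60 (SE 0.26) on the 3 probe sets in the order above. These were larger in size than without it, with a limma adjusted p of 0.184 on each. The index did not overlap between the groups, so its part cannot be told apart from that of the knockdown and was not tested.

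**Figure D1:**
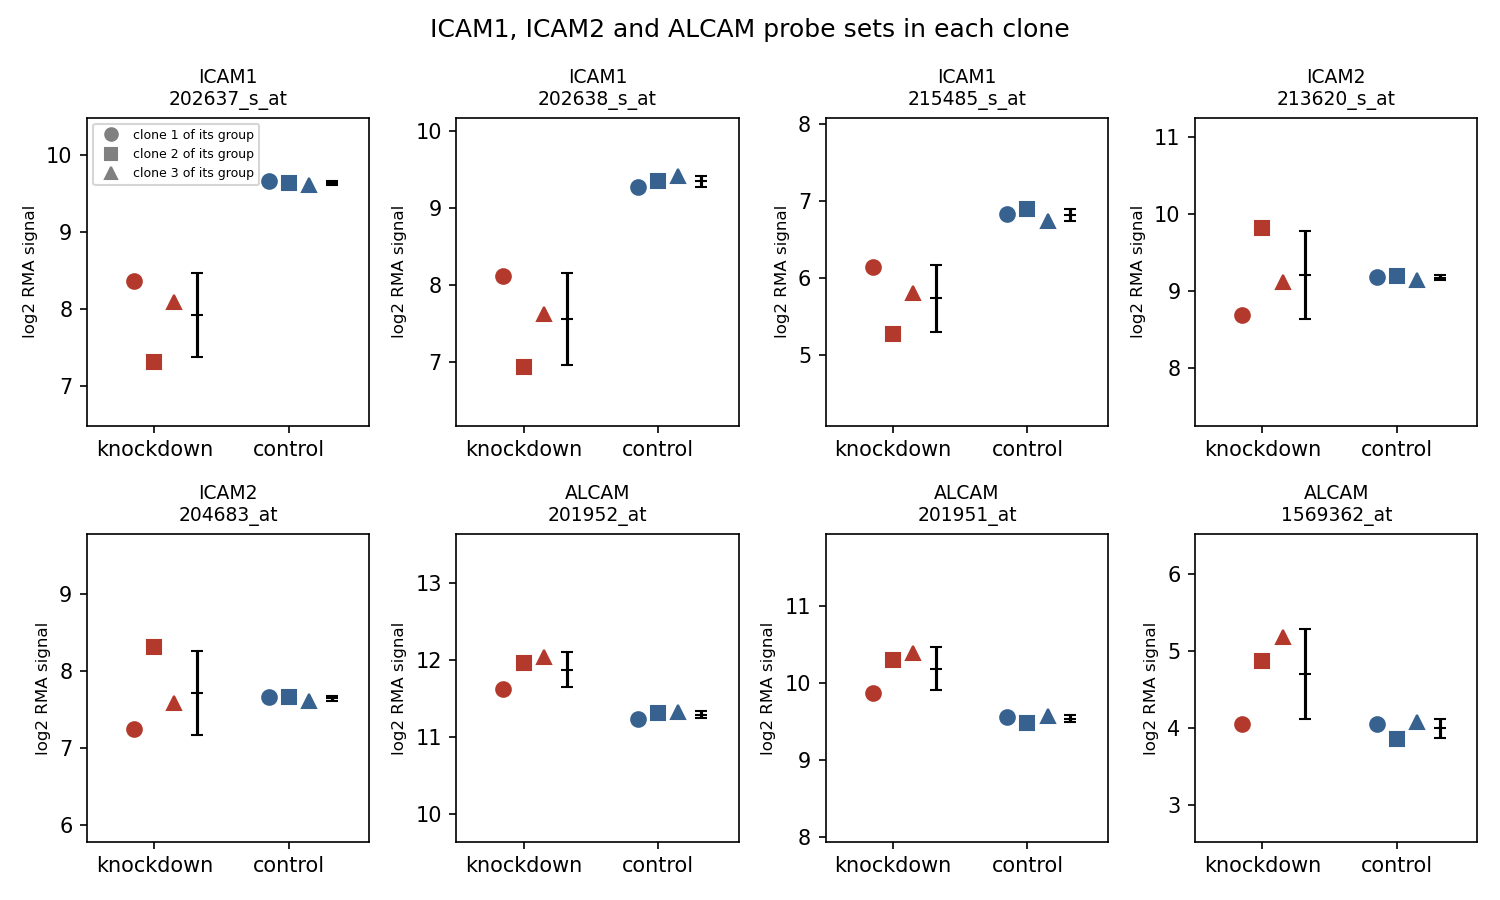
Log2 RMA signal of the ICAM1, ICAM2 and ALCAM probe sets in knockdown (red, left) and control (blue, right) clones, one symbol per clone, with the mean and SD of each group as a black bar. Every vertical axis spans the same number of log2 units. On the first ICAM1 panel knockdown clones lie between 7.31 and 8.36 and control clones between 9.61 and 9.66.

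The stretch of 250 bases before the RefSeq start of ICAM1 is shown because the signals known to induce this gene act there, and those of VCAM1 and ALCAM are shown for comparison. VCAM1 is the other cytokine-induced member and ALCAM a member whose bright probe sets read higher in knockdown clones. Capitals mark matches to GGNNNTTCC (a kB-type motif) or TATAA, searched on both strands. Sequences are from RefSeq on GRCh38.p14, plus strand, 5′ to 3′: ICAM1 at chr19:10270870-10271119, VCAM1 at chr1:100719492-100719741 and ALCAM at chr3:105366659-105366908.
ICAM1: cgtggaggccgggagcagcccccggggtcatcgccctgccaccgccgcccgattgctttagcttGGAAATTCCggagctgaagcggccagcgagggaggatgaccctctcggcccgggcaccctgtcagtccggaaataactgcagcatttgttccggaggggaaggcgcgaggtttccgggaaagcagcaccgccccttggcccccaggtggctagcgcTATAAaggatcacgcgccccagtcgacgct
VCAM1: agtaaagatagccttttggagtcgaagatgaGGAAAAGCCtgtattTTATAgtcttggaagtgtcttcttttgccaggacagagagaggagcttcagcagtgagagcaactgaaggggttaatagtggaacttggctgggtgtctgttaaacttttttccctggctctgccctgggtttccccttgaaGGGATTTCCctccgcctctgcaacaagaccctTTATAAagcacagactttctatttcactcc
ALCAM: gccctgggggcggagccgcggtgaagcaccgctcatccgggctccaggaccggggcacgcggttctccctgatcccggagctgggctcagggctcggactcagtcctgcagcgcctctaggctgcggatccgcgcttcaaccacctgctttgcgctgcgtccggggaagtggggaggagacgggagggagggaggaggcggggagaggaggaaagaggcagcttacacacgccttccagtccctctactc

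In ICAM1 the kB-type match lay at −186 to −178 and TATAA at −30 to −26, counted from the last base before the start as −1. The kB-type match was found on both strands, and no match overlapped one of another motif. VCAM1 held 2 kB-type matches, at −219 to −211 on the minus strand and at −62 to −54 on the plus strand, and TATAA in 3 places. The ALCAM window held neither motif. Of 35116 RefSeq windows of this length, 17.1% held the kB-type motif and 18.9% TATAA. Windows were found for 7 of the 9 genes, 10 windows in all, and 2 of these genes (ICAM1 and VCAM1) had a kB-type match. ICAM3, ICAM5, ALCAM, MCAM and L1CAM had none. Knockdown values were also all below control values for ICAM3 and on L1CAM 204584_at, while the groups overlapped for ICAM5, MCAM and L1CAM 204585_s_at. The part of the motifs was not tested. A match is a run of letters and not a measured binding site.

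No probe set of the other 8 genes passed the test in either direction (0 of 19 in limma, against 0.558% of all probe sets). At an unadjusted p under 0.05 there were 6 of 19, or 31.6%, against 14.0% of all probe sets. These included all 3 ALCAM probe sets, which measure the same gene and are not independent. Among them VCAM1 203868_s_at, L1CAM 204584_at and ALCAM 1569362_at had means under 5. The groups did not overlap on 6 of the 19, against 21.0% of all probe sets. Of these, 4 were lower (21.1%, against 11.1% of all) and 2 higher (10.5%, against 9.85%). The median difference over the 19 probe sets was 0.01, against −0.01 over all probe sets, with 9 below and 10 above 0. Of all 22 probe sets, 13 had a mean log2 value over 5, at least 1 for each gene except VCAM1, and 8 of the 19 were below the array medians in every clone.

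**Figure D2:**
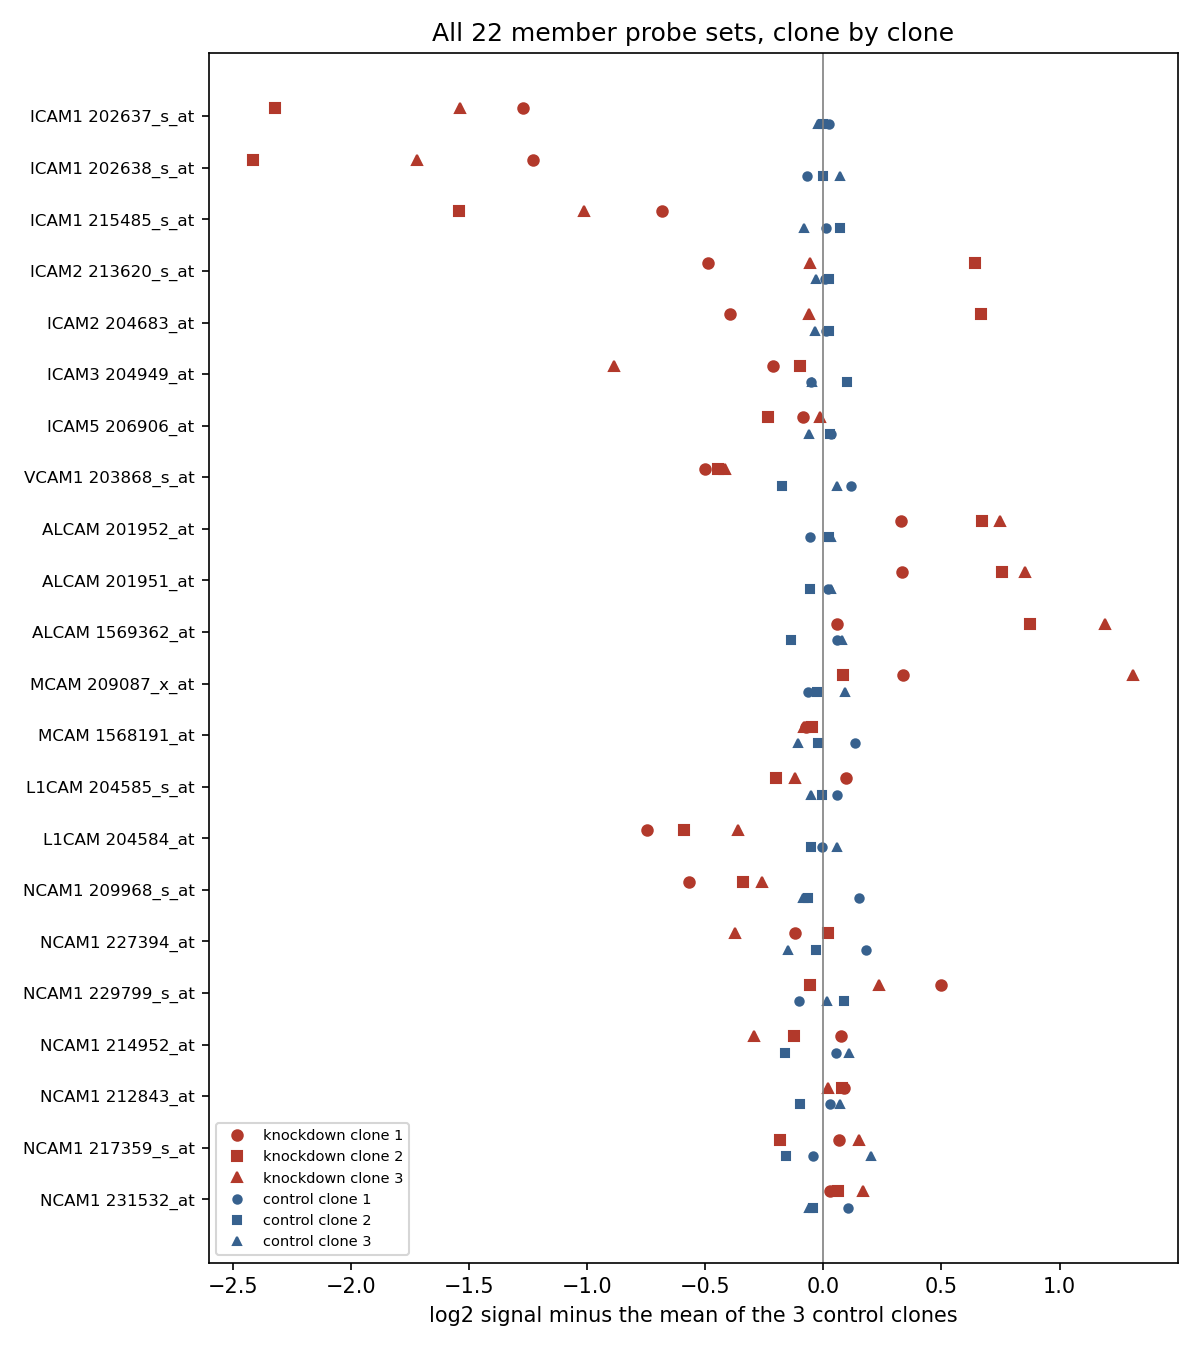
Each of the 22 probe sets, with the log2 signal of knockdown clones (red, upper) and control clones (blue, lower) drawn as the distance from the mean of the 3 control clones. Knockdown clones lie between −2.41 and −0.68 on the ICAM1 probe sets and above 0 on the ALCAM probe sets.

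Among the other inducible and integrin-binding members, VCAM1, the ligand of the integrin VLA-4, had 1 probe set (203868_s_at). It read 3.31, 3.36 and 3.39 in knockdown clones 1, 2 and 3, against 3.92, 3.63 and 3.86 in control clones 1, 2 and 3. All knockdown values were lower, by 0.45 on average (SE 0.10, limma adjusted p = 0.111), but every value was below the array medians, so VCAM1 is not shown to be above background in any clone. With the RNA quality index the difference was −0.28 (adjusted p = 0.538).

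ICAM2, an integrin ligand best known from endothelium and platelets, had group means close together and spread widely among knockdown clones. Probe set 213620_s_at read 8.68, 9.81 and 9.12 in knockdown clones 1, 2 and 3, against 9.18, 9.19 and 9.14 in control clones 1, 2 and 3. Probe set 204683_at read 7.25, 8.31 and 7.58 in knockdown clones 1, 2 and 3, against 7.65, 7.67 and 7.61 in control clones 1, 2 and 3. On each, knockdown clone 2 was above all control clones and knockdown clones 1 and 3 below them. The SD was 0.57 and 0.54 in knockdown clones and 0.03 and 0.03 in control clones on these 2 probe sets. The differences were 0.03 (SE 0.25, limma adjusted p = 0.973) and 0.07 (SE 0.24, limma adjusted p = 0.934), and −0.27 and −0.23 without knockdown clone 2. With the RNA quality index in the fit they were 0.66 and 0.64 (adjusted p = 0.480 and 0.495). Knockdown clone 2, the highest for ICAM2, was the lowest for ICAM1.

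ICAM3, an ICAM of leukocytes that takes part in their first contact with antigen-presenting cells, read 8.03, 8.15 and 7.36 in knockdown clones 1, 2 and 3, against 8.20, 8.35 and 8.20 in control clones 1, 2 and 3. Knockdown values were all below control values, with clone 3 farthest down (−0.40, SE 0.20, limma adjusted p = 0.430). Without knockdown clone 3 the difference was −0.16, and with the RNA quality index −0.65 (adjusted p = 0.437 and 0.487). ICAM5, known as telencephalin from neurons of the forebrain, read 5.44, 5.29 and 5.51 in knockdown clones 1, 2 and 3, against 5.56, 5.55 and 5.47 in control clones 1, 2 and 3. The groups overlapped (−0.11, SE 0.09, limma adjusted p = 0.672), and the difference was −0.049 without knockdown clone 2.

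ALCAM, which binds itself and the T-cell surface protein CD6, had higher values in knockdown clones on its bright probe sets. Probe set 201952_at read 11.62, 11.96 and 12.04 in knockdown clones 1, 2 and 3, against 11.24, 11.32 and 11.32 in control clones 1, 2 and 3. Probe set 201951_at read 9.87, 10.30 and 10.39 in knockdown clones 1, 2 and 3, against 9.56, 9.49 and 9.57 in control clones 1, 2 and 3. The groups did not overlap on either, and knockdown clone 1 was nearest to the control clones. The differences of 0.58 (SE 0.12) and 0.65 (SE 0.14), or 1.50-fold and 1.57-fold, missed the threshold (limma adjusted p = 0.0969 and 0.102). They passed without knockdown clone 1, at 0.71 and 0.81 (adjusted p = 0.0234 and 0.0188). With any other clone left out neither passed (adjusted p from 0.0613 to 0.404). Adding the RNA quality index to the fit gave 0.85 and 1.05, which did not pass (adjusted p = 0.205 and 0.184). The dim probe set 1569362_at read 4.06, 4.87 and 5.19 in knockdown clones 1, 2 and 3, against 4.06, 3.86 and 4.08 in control clones 1, 2 and 3, where knockdown clones 2 and 3 were above all control clones and clone 1 was among them (0.71, SE 0.26, limma adjusted p = 0.288). It passed without knockdown clone 1, at 1.03 (adjusted p = 0.0235), and not with any other clone left out. Its difference was 0.47 without knockdown clone 3 and 1.54 with the RNA quality index (adjusted p = 0.286 and 0.184).

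MCAM, also called CD146 and first described in melanoma, gave different pictures on its probe sets. Probe set 209087_x_at read 7.72, 7.46 and 8.70 in knockdown clones 1, 2 and 3, against 7.32, 7.36 and 7.47 in control clones 1, 2 and 3. Knockdown clone 3 stood more than 1 log2 unit above the control mean, by 1.31, while knockdown clone 2 lay within the control range (0.58, SE 0.29, limma adjusted p = 0.430). Without knockdown clone 3 the difference was 0.21 (adjusted p = 0.353). Probe set 1568191_at read 5.42, 5.44 and 5.41 in knockdown clones 1, 2 and 3, against 5.62, 5.47 and 5.38 in control clones 1, 2 and 3 and did not separate the groups (−0.07, SE 0.09, limma adjusted p = 0.809). The suffix of the first marks probes that can match other transcripts.

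L1CAM, a neural cell adhesion molecule also found on invasive carcinoma cells, had 2 probe sets. Probe set 204585_s_at read 5.99, 5.69 and 5.77 in knockdown clones 1, 2 and 3, against 5.95, 5.88 and 5.84 in control clones 1, 2 and 3, with overlapping groups (−0.07, SE 0.10, limma adjusted p = 0.812). Probe set 204584_at read 4.26, 4.42 and 4.65 in knockdown clones 1, 2 and 3, against 5.001, 4.96 and 5.07 in control clones 1, 2 and 3. All knockdown values were lower there (−0.57, SE 0.11, limma adjusted p = 0.0888), below the array medians in every clone. Without knockdown clone 3 the difference on 204584_at was −0.67 and passed (adjusted p = 0.0155). It did not pass with any other clone left out. The RNA quality index as a covariate gave −0.34 (adjusted p = 0.484).

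NCAM1, the CD56 molecule of neurons and natural killer cells, had 7 probe sets, of which 6 were below the array medians in every clone. The brightest, 209968_s_at, read 5.19, 5.43 and 5.51 in knockdown clones 1, 2 and 3, against 5.92, 5.70 and 5.68 in control clones 1, 2 and 3. Knockdown values were all below control values (−0.39, SE 0.12, limma adjusted p = 0.202). With the RNA quality index in the fit its difference was −0.10. The other 6 probe sets had differences between −0.16 and 0.23 with overlapping groups (limma adjusted p from 0.555 to 0.981).

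Knockdown clones varied more than control clones over the group as over the array. The SD was larger in knockdown than in control clones on 14 of the 19 probe sets outside ICAM1, or 73.7%, against 76.7% of all genes. The median SD of these probe sets was 0.19 in knockdown and 0.09 in control clones, against 0.16 in knockdown and 0.08 in control clones over all genes. The values over all genes use only the brightest probe set of each gene, so they are not counted like those of the members.

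ICAM1, ICAM4, ICAM5 and ICAM3 lie close together on chromosome 19, so the measured genes around ICAM1 were set beside it in the order of the RefSeq gene table. MRPL4, a mitochondrial ribosomal protein gene and the nearest measured gene on one side, differed by 0.15 (SE 0.08, limma adjusted p = 0.479). ICAM4, the nearest on the other side and a red-cell adhesion molecule, read 5.27, 5.95 and 4.69 in knockdown clones 1, 2 and 3, against 5.23, 5.32 and 5.41 in control clones 1, 2 and 3. Its difference was −0.02 (SE 0.28, limma adjusted p = 0.986), a value whose sign changed with the processing. None of the 20 neighbours, 10 on each side and including ICAM3 and ICAM5, was called in limma, against 0.738% of all genes, and 1 of 20 had an unadjusted p under 0.05, against 16.8% of all genes. Their differences ran from −0.42 to 0.20 with a median of −0.05, and the groups did not overlap in 3 that were lower and 1 that was higher (12.6% and 12.1% of all genes).

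**Figure D3:**
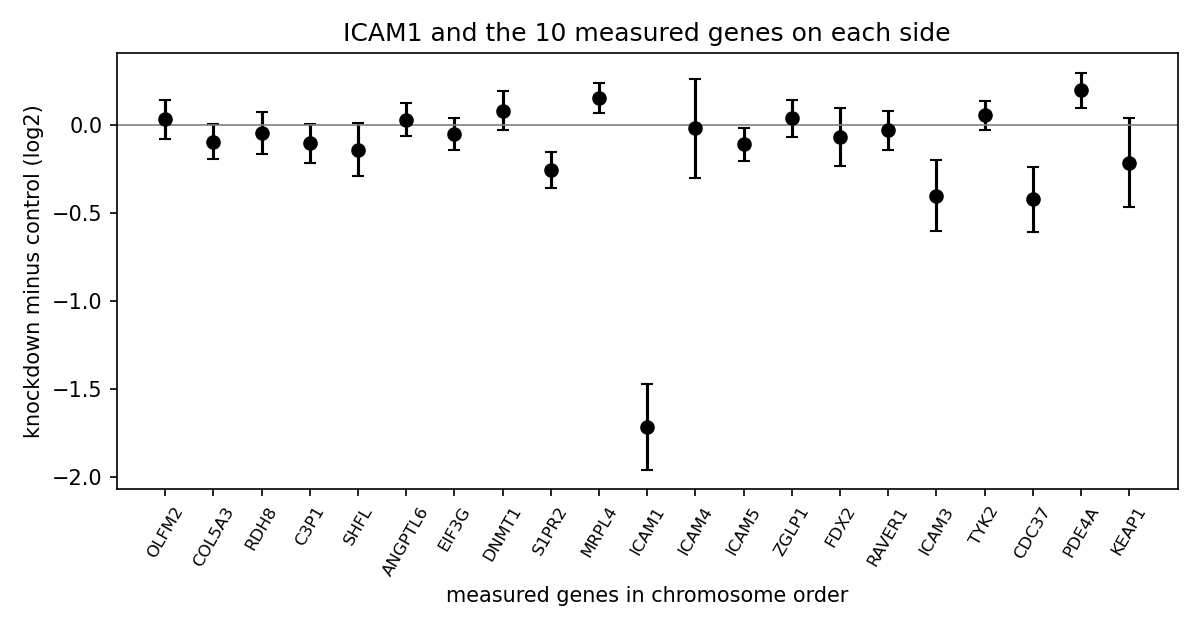
Difference of knockdown minus control on the log2 scale, with SE bars, for ICAM1 and the 10 measured genes on each side in chromosome order. ICAM1 is at −1.71 and the 20 neighbours lie between −0.42 and 0.20.

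The profile most like that of ICAM1 was sought as the smallest root mean square (rms) difference over the 6 arrays, each gene taken relative to its own control mean. KLRC3, a gene of the natural killer receptor family, was nearest at 0.09 log2 units. It read 7.42, 6.20 and 6.86 in knockdown clones 1, 2 and 3, against 8.49, 8.55 and 8.55 in control clones 1, 2 and 3. It shares ICAM1's order of knockdown clones, and its closeness to other KLRC genes makes its identity uncertain. The next were the complement protease C1S (0.21), the nicotinamide methyltransferase NNMT (0.23), the collagen chain COL6A3 (0.29) and the sorting receptor SORCS2 (0.29). In each of these 5 genes knockdown clone 2 was the lowest. The measure picks genes with a decrease of like size in each clone. Their decreases and their order of knockdown clones are therefore part of the choice.

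**Figure D4:**
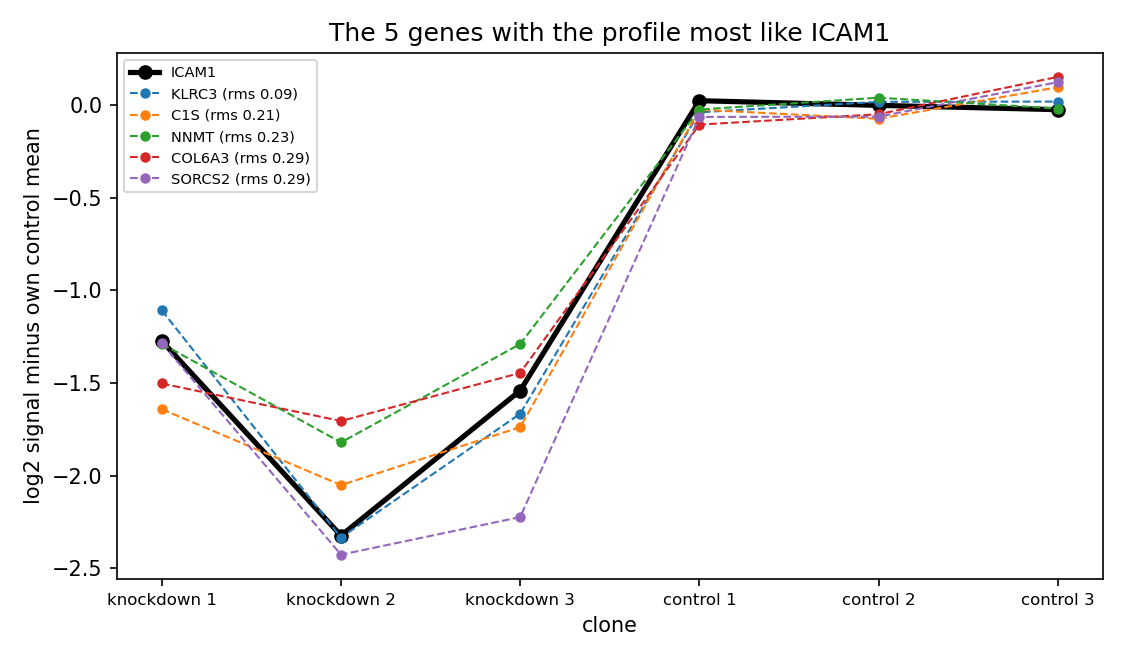
Log2 signal minus the mean of the gene's own control clones, for ICAM1 (black) and the 5 genes with the smallest rms difference from it, in knockdown clones (left) and control clones (right). In knockdown clone 2 ICAM1 is at −2.32 and KLRC3 at −2.33.

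The 6 lists of partners, inducers and relatives were counted on the brightest probe set of each gene, against 0.319% of all genes called higher and 0.420% called lower. Without adjustment (p under 0.05) 9.11% of all genes were higher and 7.67% lower. Of 18 measured partners of ICAM1 (leukocyte integrins, membrane-cytoskeleton linkers and other ligands), 1 fell and 0 rose, and without adjustment 1 was lower and 0 higher. The one that fell was MUC1, a transmembrane mucin that ICAM1 can bind. It read 6.56, 6.37 and 6.51 in knockdown clones 1, 2 and 3, against 7.65, 7.75 and 7.77 in control clones 1, 2 and 3. The knockdown values were close together and well below the control values (−1.24, SE 0.09, limma adjusted p = 0.00783). All 3 MUC1 probe sets were lower and 2 passed. The call of MUC1 did not pass without control clone 1, 2 or 3 (adjusted p = 0.0891, 0.105 and 0.111), while its difference stayed between −1.29 and −1.19. The list median was −0.09, against −0.01 over all genes.

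The list of ICAM1 inducers held TNF, IL1 and interferon receptors, NF-kB and other transcription factors and regulators. Inhibitors of NF-kB were among these regulators, so the counts mix opposite roles. Of its 36 measured genes, 1 fell and 0 rose, with a median of −0.10. Without adjustment (p under 0.05) 4 were higher and 10 lower, against 9.11% and 7.67% of all genes, and the groups did not overlap in 5 that were higher and 12 that were lower (12.1% and 12.6% of all genes). IL1RAP, the accessory chain of the IL1 receptor, read 7.25, 7.01 and 7.02 in knockdown clones 1, 2 and 3, against 7.92, 7.86 and 7.92 in control clones 1, 2 and 3. The groups were apart on this probe set (−0.80, SE 0.10, limma adjusted p = 0.0316), and on the other probe set of IL1RAP they overlapped (−0.34, adjusted p = 0.382). Its call did not pass without knockdown clone 2 (adjusted p = 0.0745) or without control clone 1, 2 or 3 (0.263, 0.230 and 0.241). Of 24 other NF-kB targets none was called in limma. Without adjustment (p under 0.05) 0 were higher and 4 lower, against 9.11% and 7.67% of all genes, and the median was −0.19. The smallest p-values were those of the lymphatic growth factor VEGFC (−0.47, SE 0.09, adjusted p = 0.0715) and of the pentraxin PTX3 (−0.69, SE 0.17, adjusted p = 0.122). VEGFC passed without knockdown clone 3 (−0.49, adjusted p = 0.0331) and not with any other clone left out (adjusted p from 0.0581 to 0.336).

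Of 62 other measured immunoglobulin-family adhesion molecules, 1 fell and 0 rose, with a median of −0.03, and without adjustment 2 were higher and 5 lower. CLMP, a junctional protein related to the coxsackievirus and adenovirus receptor, read 8.98, 9.25 and 8.99 in knockdown clones 1, 2 and 3, against 9.74, 9.72 and 9.77 in control clones 1, 2 and 3. The groups did not overlap on it (−0.67, SE 0.10, limma adjusted p = 0.0472) or on its other probe set (−0.41, adjusted p = 0.153). Its call did not pass without knockdown clone 2 (adjusted p = 0.0677) or without control clone 1, 2 or 3 (0.292, 0.277 and 0.274).

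Among 10 partners of VCAM1 and ALCAM and 17 partners of L1CAM and NCAM1, none was called in limma. Without adjustment (p under 0.05) there were 0 of the 10, and 1 higher and 1 lower of the 17, against 9.11% higher and 7.67% lower of all genes, and the medians were −0.10 and −0.07. In the first list the adaptors SNTB2 (−0.31, adjusted p = 0.385) and PXN (−0.33, adjusted p = 0.401) had the smallest p-values, and PXN passed without knockdown clone 1 (−0.52, adjusted p = 0.0436). Without knockdown clone 3 SNTB2 was −0.17 and PXN −0.21 (adjusted p = 0.439 and 0.470), and PXN was −0.75 with the RNA quality index (adjusted p = 0.249). The other PXN probe set differed by −0.04 (adjusted p = 0.902). Of the 7 probe sets of SNTB2, 5 were lower and none was called. In the other list the smallest p-values were those of FGFR1 and ST8SIA4. FGFR1, a growth factor receptor that binds NCAM1 and L1CAM, differed by −0.52 (SE 0.13, adjusted p = 0.139). ST8SIA4, which adds polysialic acid to NCAM1, differed by 0.36 (SE 0.13, adjusted p = 0.259). Of the 7 probe sets of FGFR1, 5 were lower, and of the 5 of ST8SIA4, 4 were higher. ST8SIA4 passed without knockdown clone 3 (0.49, adjusted p = 0.0331) and not with any other clone left out. It was 0.16 with the RNA quality index (adjusted p = 0.792).

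**Figure D5:**
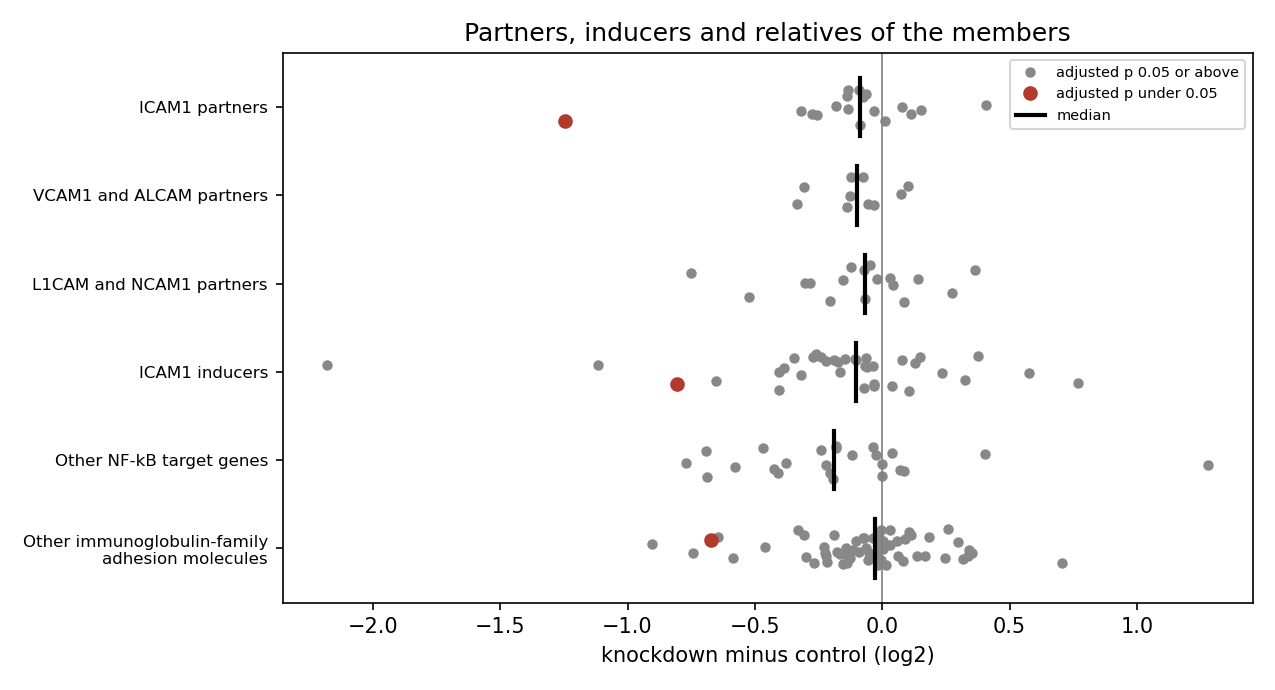
Difference of knockdown minus control on the log2 scale for the measured genes of 6 lists, 1 point per gene (brightest probe set), with called genes in red and the list median as a black bar. MUC1 at −1.24, IL1RAP at −0.80 and CLMP at −0.67 are the called genes, and the medians lie between −0.19 and −0.03.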

How the data were processed

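Per the submitters' processing notes, the deposited log2 values are the authors' RMA values from Affymetrix Expression Console 1.0. RNA was amplified from the 3′ end and labelled with biotin, per the labels' protocols. RMA matches the distributions of all arrays, which hides any shift common to nearly all transcripts. Scanner files and detection calls were not analysed here, and precision is limited by there being 3 arrays in each group.

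Probe sets were named from the platform annotation, with symbols updated through RefSeq gene identifiers (41037 of 41091 probe sets with 1 symbol matched, 1801 with several symbols unnamed). The 62 control probe sets were left out. limma 3.58.1 in R 4.3.3 (lmFit, eBayes, group as the only term, two-sided) was fitted to all 54613 others and was tested on simulated data. A gene was its probe set with the highest mean, 19775 in all. Whether clones of a group came from separate infections is not given, so p-values measure the spread between these clones only.

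The genes and lists were chosen with earlier results of these data known. Named genes were all members, in each list up to 4 called genes by size or the 2 with the smallest p, the 5 genes most like ICAM1, its nearest neighbours and ICAM4, and WASF3. The alternatives were a replicate block, other variance models, array weights, a filter on means over 5, median centring, the RNA quality index as a covariate, control probe sets kept, other ways to combine probe sets, and each clone left out.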

Additional observations from a re-analysis of the deposited data

How the results depend on the processing

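The numbers of genes called higher and lower (63 and 83) moved with most settings, and the cause was not tested. They were 0 and 3 with the replicate block, 19 and 44 with an intensity trend, 419 and 295 with array weights, 0 and 1 with the RNA quality index, and 110 and 128 when probe sets of a gene were averaged. With probe sets of a mean over 5 alone, 97 were higher. With single clones left out they ran from 0 to 784 higher and from 2 to 441 lower. Outside ICAM1, 3 member probe sets passed with array weights (ALCAM 201952_at and 201951_at and L1CAM 204584_at), 0 to 3 with single clones left out and 0 in the other settings, also with the replicate block. Clones that share a number did not deviate together (correlations −0.12, −0.13 and −0.06 for numbers 1, 2 and 3). With 3 clones in each group these values cannot exclude that the numbers pair the clones. No clone correlated best with its own number. With the block MUC1 (adjusted p = 0.0970), IL1RAP (0.152) and CLMP (0.176) did not pass. IL1RAP (0.0503) and CLMP (0.0664) also missed with an intensity trend, CLMP with centred arrays (0.0534), and MUC1 (0.173), IL1RAP (0.184) and CLMP (0.306) with the RNA quality index.

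ICAM1, which was chosen for its decrease, was lower in all 14 settings, with 202637_s_at between −2.25 and −1.41. Its groups did not overlap, so leaving out a clone could not change the sign, and nothing is read from this. The other changes of sign among the named genes follow. With single clones left out, ICAM2 ran from −0.27 to 0.29 on 213620_s_at and from −0.23 to 0.30 on 204683_at, the lowest without knockdown clone 2, and was 0.66 and 0.64 with the RNA quality index. NCAM1 217359_s_at was −0.044 with array weights, −0.0026 with the RNA quality index and −0.066 to 0.11 with single clones left out, and NCAM1 229799_s_at was −0.18 with that index. ICAM4 was 0.21 with array weights, 0.0019 with centred arrays, 0.051 with the index and −0.34 to 0.29 with single clones left out. MCAM, by its brightest probe set without those matching several transcripts, was −0.068.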

Other observations

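The genes in this paragraph and the next were chosen after their values were seen, and none passed over all probe sets. IL1B, the inflammatory cytokine that induces ICAM1, read 8.05, 8.71 and 10.92 in knockdown clones 1, 2 and 3, against 11.47, 11.38 and 11.37 in control clones 1, 2 and 3 (−2.18, SE 0.64, limma adjusted p = 0.191). Knockdown clone 1 was the lowest for IL1B and clone 2 the lowest for ICAM1. Without knockdown clone 3 the difference of IL1B was −3.03 and passed (adjusted p = 0.00213), while it was −1.59 without knockdown clone 1 and −0.87 with the RNA quality index (adjusted p = 0.211 and 0.758). IRF1, an interferon-induced transcription factor, read 8.17, 8.51 and 7.51 in knockdown clones 1, 2 and 3, against 8.69, 8.70 and 8.76 in control clones 1, 2 and 3 (−0.65, SE 0.23, adjusted p = 0.261), and differed by −0.38 without knockdown clone 3 (adjusted p = 0.129).

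CD58, the ligand of the T-cell surface protein CD2, read 10.64, 10.88 and 10.39 in knockdown clones 1, 2 and 3, against 11.17, 11.27 and 11.24 in control clones 1, 2 and 3. The groups did not overlap (−0.59, SE 0.13, limma adjusted p = 0.108). KIRREL1, an immunoglobulin-family protein of the kidney slit diaphragm, differed by −0.65 (SE 0.10, adjusted p = 0.0501). It passed when knockdown clone 1 was left out (−0.69, adjusted p = 0.0330), and also when clone 3 was (−0.56, adjusted p = 0.0188). Without knockdown clone 2 it did not pass (adjusted p = 0.0888), and with single clones left out the adjusted p reached 0.292. Nor did KIRREL1 pass with the replicate block (adjusted p = 0.177) or the RNA quality index (−0.77, adjusted p = 0.212).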
